A study of Homo sapiens with 22 samples.

Results

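Heat shock proteins and their partner chaperones were taken as every probe whose single gene symbol begins with HSPA, HSPB, HSPD, HSPE, HSPH, HSP90, DNAJ or UBQLN, or with BAG or CCT followed by a digit, together with TCP1, STIP1, AHSA1, CHORDC1 and SERPINH1. The rule used names and no measured value. It found 50 genes, with 59 probes, among 14257 probes in the series, of which 8051 carry 1 gene symbol. Of these genes, 46 were measured in the pancreatic carcinoma line Mia-PaCa-2, by 55 probes, and 15 in the melanoma line SK-MEL-28, by 15 probes. Of the probes, 11 have values for both lines, 44 for Mia-PaCa-2 alone and 4 for SK-MEL-28 alone. A further 6 probes carry several gene symbols and were not members. By the place where their products act, 33 genes were assigned to the cytosol and nucleus, 7 to the endoplasmic reticulum (ER) and 5 to mitochondria, and 5 were not placed. Among the last are DNAJC27-AS1, a long noncoding RNA, and DNAJC25-GNG10, a read-through transcript.

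The study compared untreated cells with cells given 1 µM Amblyomin-X for 4 h. Amblyomin-X is a protein of the Kunitz inhibitor family, cloned from a tick and made recombinantly. RNA was read on 1-colour CodeLink oligonucleotide arrays. The groups were 6 untreated and 6 treated Mia-PaCa-2 arrays, and 5 untreated and 5 treated SK-MEL-28 arrays. Both arms of both lines were grown in the same serum-containing medium, and each arm comes from 1 established line.

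Chaperones bind unfolded or aggregation-prone proteins and, mostly through cycles of ATP hydrolysis, return them to a folded state or hand them to the proteasome. HSP70 proteins take their substrates from J proteins (DNAJ) and are reset by nucleotide exchange factors of the HSP110 and BAG families. HSP90 completes the folding of kinases and receptors, and the ring-shaped chaperonin CCT folds actin and tubulin. When unfolded proteins build up in the cytosol, for example under heat or when the proteasome is blocked, heat shock factor 1 (HSF1) binds inverted repeats of nGAAn in promoters and raises the inducible members. The ER and the mitochondria have sets of their own.

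To show the kind of promoter through which these genes are known to be regulated, the 250 bases before the transcription start were read from RefSeq (GRCh38.p14) for 43 member genes that had an entry, 56 entries in all. A match to 3 adjoining HSF1 units, GAANNTTCNNGAA on either strand, was found in 155 of 35116 promoters of this length (0.441%) and in 4 of the 56 entries. These belonged to HSP90AA1, HSP90AB1, HSPA8 and SERPINH1. The shorter pair of units, written GAANNTTC or TTCNNGAA, lies inside the longer one, and was found in 11.6% of all promoters and in 13 of the member genes. The 4 promoters with a match are shown with the matching letters in capitals, followed by the promoter of HSPH1, a gene described first in the results, which held no match to the longer motif. HSP90AA1 is at chr14:102087045-102087294 on the minus strand, HSP90AB1 at chr6:44247693-44247942 on the plus strand, HSPA8 at chr11:123062137-123062386 on the minus strand, SERPINH1 at chr11:75562003-75562252 on the plus strand and HSPH1 at chr13:31162389-31162638 on the minus strand. Other RefSeq starts of HSP90AA1, HSP90AB1 and SERPINH1 held no match. A match is a string of letters, and binding was not measured.
HSP90AA1: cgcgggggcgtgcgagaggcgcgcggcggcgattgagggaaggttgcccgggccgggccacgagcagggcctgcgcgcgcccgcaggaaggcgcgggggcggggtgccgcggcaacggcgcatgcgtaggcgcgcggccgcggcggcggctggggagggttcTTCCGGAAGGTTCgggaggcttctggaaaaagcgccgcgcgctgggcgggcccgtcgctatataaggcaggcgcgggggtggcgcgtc
HSP90AB1: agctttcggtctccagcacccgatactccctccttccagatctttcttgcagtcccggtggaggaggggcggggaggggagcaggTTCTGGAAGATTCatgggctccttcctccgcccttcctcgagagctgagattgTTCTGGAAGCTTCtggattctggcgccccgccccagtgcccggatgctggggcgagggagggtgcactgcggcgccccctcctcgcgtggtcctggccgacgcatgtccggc
HSPA8: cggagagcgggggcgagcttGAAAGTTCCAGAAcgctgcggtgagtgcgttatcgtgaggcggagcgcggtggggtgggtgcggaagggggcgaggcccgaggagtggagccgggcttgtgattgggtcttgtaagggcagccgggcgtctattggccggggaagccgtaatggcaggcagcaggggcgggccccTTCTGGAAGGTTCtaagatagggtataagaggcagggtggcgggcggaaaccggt
SERPINH1: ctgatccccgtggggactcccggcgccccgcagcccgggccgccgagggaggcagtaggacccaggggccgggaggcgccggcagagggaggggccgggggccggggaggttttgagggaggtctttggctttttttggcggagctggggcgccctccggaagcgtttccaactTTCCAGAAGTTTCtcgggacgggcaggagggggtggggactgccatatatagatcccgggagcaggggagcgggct
HSPH1: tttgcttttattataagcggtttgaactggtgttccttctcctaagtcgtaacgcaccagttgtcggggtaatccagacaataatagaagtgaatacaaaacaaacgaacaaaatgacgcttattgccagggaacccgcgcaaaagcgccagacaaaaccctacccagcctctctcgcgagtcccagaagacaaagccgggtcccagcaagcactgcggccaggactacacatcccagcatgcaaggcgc

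Some arrays stood apart. Untreated arrays 4 and 5 of Mia-PaCa-2 correlated with the other arrays of their line at Pearson's r of 0.712 to 0.814 across 11486 probes, against 0.851 to 0.955 among the others. Treated arrays 3 and 5 of SK-MEL-28 correlated with theirs at 0.636 to 0.803 across 7810 probes, against 0.766 to 0.950. Across the lines, on 5195 shared probes, these 4 arrays correlated with each other at 0.864 to 0.962, and the remaining arrays at 0.357 to 0.471. Results are therefore given with and without them. Median intensities before normalization lay between 68.1 and 156.0 (Mia-PaCa-2) or 55.4 and 164.7 (SK-MEL-28), and the number of arrays limits the precision. Of 10 epithelial markers 5 were measured in Mia-PaCa-2, with KRT18 at 13.08 to 14.13 on the log2 scale on the arrays that have a value. On the arrays that did not stand apart, KRT8 read 7.21 to 10.03, KRT19 6.59 to 8.87, CLDN4 6.75 to 7.53 and MUC1 5.75 to 7.43. Of 12 melanocyte markers 1 was measured, SLC45A2, at 6.97 to 7.70 on those arrays. Levels of different probes are not comparable, so these values do not settle the label of this line. In SK-MEL-28, 0 of the 12 melanocyte markers and 1 epithelial marker, MUC1, were measured, so its label could not be checked this way.

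All values below are log2 normalized intensities. They compare arrays for 1 probe, not probes with each other. Differences are treated minus untreated with their standard error (SE). The first comparison asked which chaperone transcripts differed after 4 h of Amblyomin-X in Mia-PaCa-2. No chaperone gene passed the test after adjustment over all probes: with limma and Benjamini-Hochberg adjustment 0 of 46 genes were under 0.05, as were 0 of all 11604 probes (0.0%). Of the 46 genes 25 were higher and 21 lower in treated cells, with a median difference of 0.05, where all probes had a median of 0.01. At an unadjusted p under 0.05 there were 2 genes, 1 in each direction, where 9.59% of all probes passed, 5.19% higher and 4.4% lower. The treated and untreated arrays overlapped for all 46 genes, and 0.543% of all probes did not overlap. In 39 of the 46 genes the 95% interval of the difference lay within 1 on the log2 scale on either side of 0.

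Without untreated arrays 4 and 5 the median moved to -0.05, with 18 genes higher, and 31 of the 46 genes kept their sign. Of all 11604 probes, 5874 were then higher and 8453 kept their sign. At an unadjusted p under 0.05 there was then 1 gene, DNAJC25-GNG10 (-0.59), where 5.48% of all probes passed. The plot of differences by gene shows both sets of estimates.

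**Figure D1:**
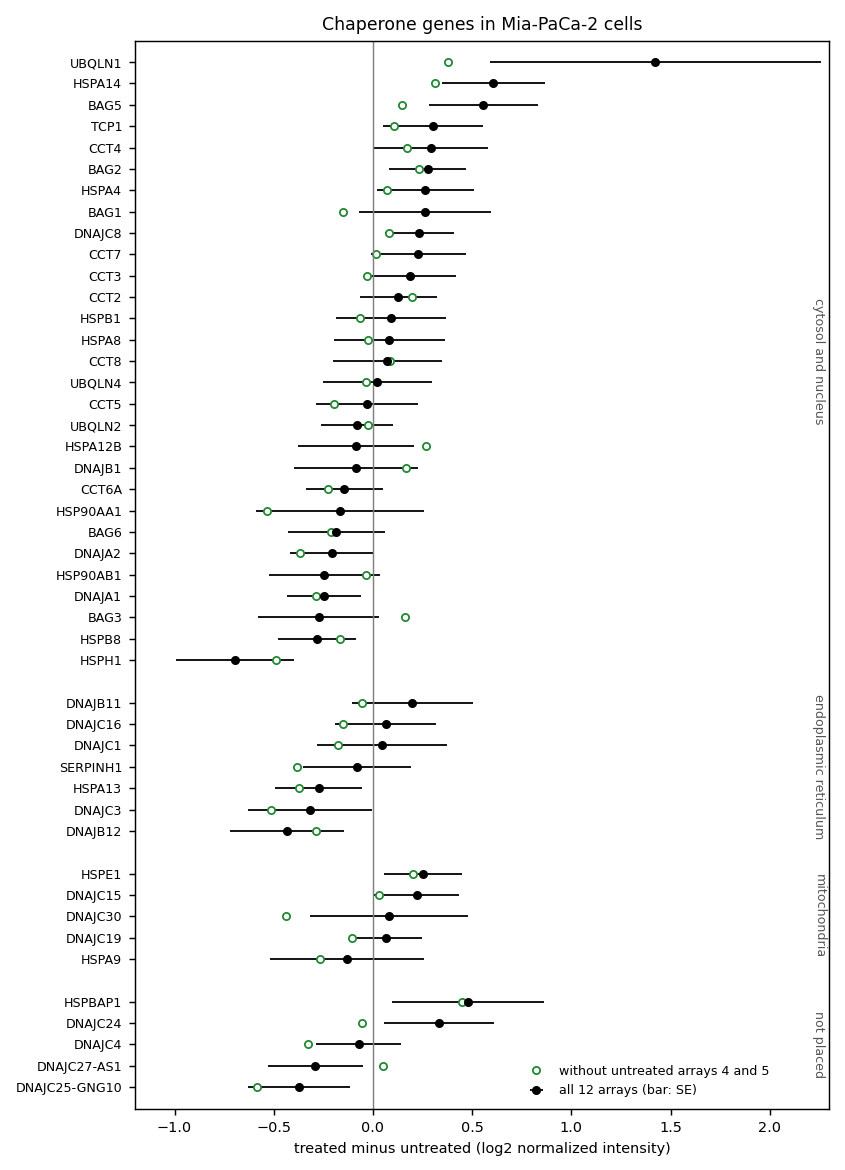
Treated minus untreated difference of each of the 46 chaperone genes in Mia-PaCa-2 (horizontal axis, log2 normalized intensity), grouped by compartment and sorted within it; filled points with SE bars use all 12 arrays, open points leave out untreated arrays 4 and 5. Most bars cross 0, and the open point of UBQLN1 (0.38) lies far from its filled point (1.42).

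Among the HSP70 and HSP110 proteins, HSPH1 and HSPA14 had the smallest p. HSPH1 (HSP105), an exchange factor that resets HSP70 and is itself inducible by heat, read 6.87, 8.20, 8.67, 8.15, 8.62 and 7.36 on untreated arrays 1 to 6. It read 7.32, 7.20, 7.46, 6.61, 7.51 and 7.59 on the treated arrays. Each of the 6 treated arrays was under the untreated mean, yet untreated arrays 1 and 6 lay within the treated range. The difference was -0.69 ± 0.30 (limma, unadjusted p = 0.034, adjusted p = 0.501), and -0.49 without untreated arrays 4 and 5.

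HSPA14, an HSP70 that works at the ribosome on new chains, read 9.09, 8.06, 8.12, 7.46, 7.63 and 8.47 on the untreated arrays and 8.48, 9.16, 8.36, 8.99, 8.54 and 8.94 on the treated ones. All 6 treated arrays were above the untreated mean, and the lowest untreated values were those of arrays 4 and 5. The difference was 0.61 ± 0.26 (limma, unadjusted p = 0.034, adjusted p = 0.501), and it was 0.31 without these arrays.

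HSPA8, the constitutive HSP70 of the cytosol, has a normalized value on 7 of the 12 arrays. It read 13.62, 13.62, 13.30 and 13.95 on untreated arrays 2, 3, 5 and 6, and 13.42, 13.57 and 14.13 on treated arrays 3, 5 and 6. The difference was 0.08 ± 0.28 (limma, 4 against 3 arrays, unadjusted p = 0.777). Before normalization the same probe has an intensity on every array, from 5851 to 18209 on the linear scale. Quantile normalization of those intensities gave 0.13 ± 0.17 on all 12 arrays. HSPA4, another HSP110 exchange factor, read between 11.16 and 12.20 on untreated and between 11.44 and 12.63 on treated arrays, a difference of 0.26 ± 0.24 that was 0.07 without arrays 4 and 5. HSPA12B, a divergent HSP70 known from endothelium, read 6.90 and 6.86 on untreated arrays 4 and 5 and 5.35 to 6.28 on the other 4. One treated array, number 6, reached 6.93, and the difference was -0.09 ± 0.29, or 0.27 without arrays 4 and 5.

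Neither HSP90 isoform of the cytosol differed beyond the spread of its arrays. HSP90AA1, the inducible isoform, read 9.89, 11.99, 11.83, 9.22, 10.54 and 10.23 on the untreated arrays and 10.60, 10.37, 11.28, 10.20, 10.64 and 9.62 on the treated arrays. Its untreated SD of 1.10 (n = 6) exceeded the difference of -0.17 ± 0.43, which was -0.53 without arrays 4 and 5. A second HSP90AA1 probe gave -0.27 ± 0.24, and 0.04 without them. HSP90AB1, the constitutive isoform, ranged from 6.38 to 8.30 on untreated and from 6.65 to 7.51 on treated arrays, a difference of -0.24 ± 0.28.

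Both small heat shock proteins that were measured, which hold unfolded proteins in solution without ATP, also overlapped between the arms. HSPB1 (HSP27) read 13.38, 12.38, 12.28, 12.87, 11.56 and 12.72 on the untreated arrays and 12.16, 13.00, 12.36, 13.13, 12.34 and 12.75 on the treated ones. The mean was 12.53 ± 0.61 (SD, n = 6) in untreated and 12.62 ± 0.40 (SD, n = 6) in treated cells. HSPB8, the partner of BAG3 in selective autophagy, had a difference of -0.28 ± 0.20, with treated arrays at 6.0 to 6.78 and untreated arrays at 6.42 to 7.03.

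Of the BAG proteins 3 were higher and 2 lower. BAG5, an exchange factor for HSP70, read 7.18, 6.68, 6.65, 5.85, 5.40 and 6.93 on untreated arrays, and 6.91, 7.33, 6.67, 7.08, 6.88 and 7.15 on treated arrays. Its difference of 0.56 ± 0.28 (limma, unadjusted p = 0.061, adjusted p = 0.501) was 0.14 without arrays 4 and 5, the lowest of the untreated arrays. BAG3, which is induced with the heat shock response and links HSP70 to autophagy, showed the opposite order on those arrays. It read 7.58 and 8.33 on untreated arrays 4 and 5, 6.32 to 6.92 on the other 4 and 6.40 to 7.22 on the treated arrays. The difference was -0.27 ± 0.30 with all arrays and 0.16 without arrays 4 and 5, so its sign rested on them. BAG2, which restrains the ubiquitin ligase CHIP, had a difference of 0.28 ± 0.19 (0.23 without arrays 4 and 5). BAG1, which brings HSP70 to the proteasome, had 0.26 ± 0.33 (-0.15), and BAG6, which guards tail-anchored and mislocalized proteins, had -0.18 ± 0.24 (-0.21).

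**Figure D2:**
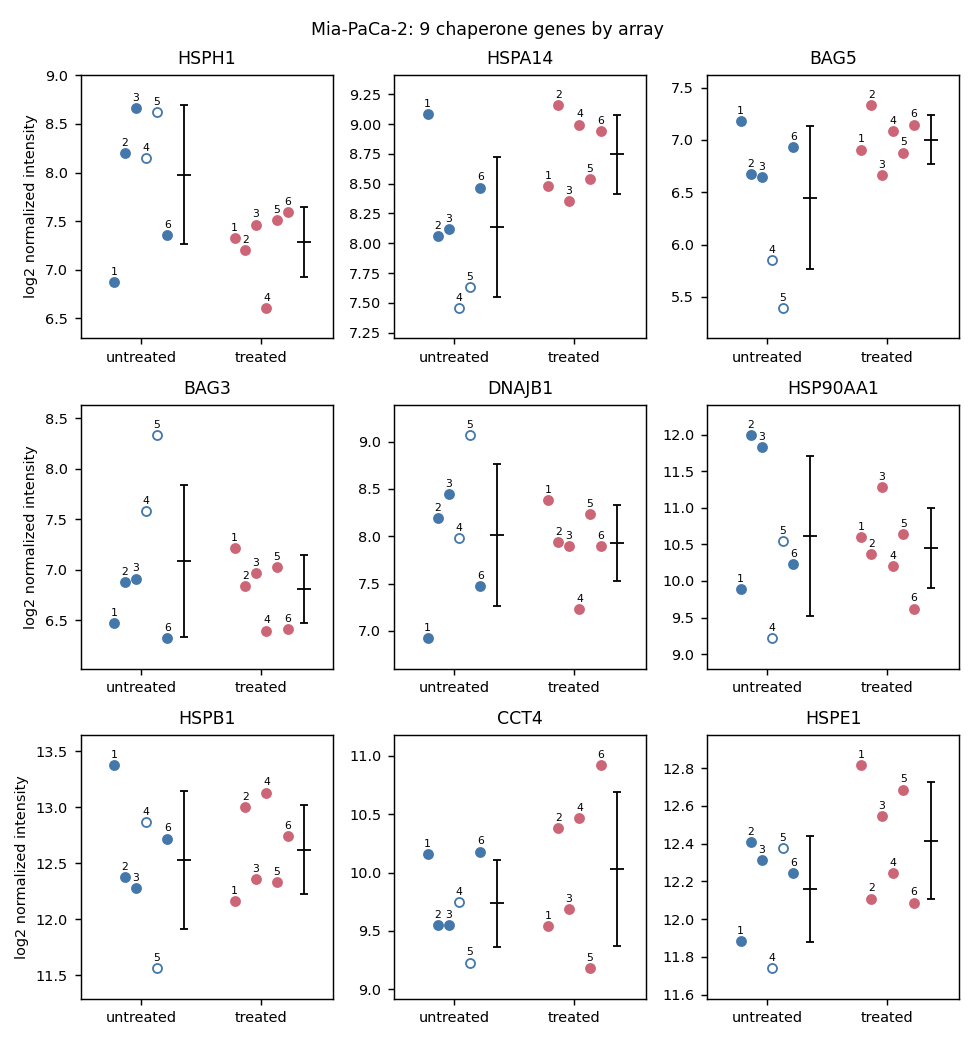
Log2 normalized intensity (vertical axis, scaled per panel) of 9 chaperone genes on each Mia-PaCa-2 array, by arm; numbers are replicate numbers, open circles are untreated arrays 4 and 5, and the black mark and bar are the mean and SD of all 6 arrays. The arms overlap in every panel; BAG5 is lowest and BAG3 highest on untreated arrays 4 and 5.

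The J proteins of the cytosol, which bring substrates to HSP70, gave small differences. DNAJB1 (HSP40), an inducible partner of HSP70, read 6.92, 8.19, 8.44, 7.98, 9.07 and 7.47 on untreated and 8.38, 7.93, 7.89, 7.23, 8.23 and 7.90 on treated arrays. Its difference was -0.09 ± 0.31, and 0.17 without untreated arrays 4 and 5, of which array 5 was its highest. DNAJA1, a farnesylated J protein, had all 6 treated arrays below the untreated mean, but by a difference of only -0.25 ± 0.19 (limma, unadjusted p = 0.208). Its treated arrays lay at 8.75 to 9.16 and its untreated arrays at 8.83 to 9.77. DNAJC8, a J protein of the spliceosome, had all 6 treated arrays above the untreated mean, with a difference of 0.23 ± 0.17 that was 0.08 without arrays 4 and 5. DNAJA2 had a difference of -0.21 ± 0.21.

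All 8 measured subunits of the CCT ring are given, since they form 1 complex. The differences were 0.30 ± 0.25 for TCP1 (CCT1), 0.13 ± 0.19 for CCT2, 0.19 ± 0.23 for CCT3 and 0.29 ± 0.29 for CCT4. They were -0.03 ± 0.26 for CCT5, -0.14 ± 0.19 for CCT6A, 0.23 ± 0.24 for CCT7 and 0.07 ± 0.27 for CCT8. Thus 6 of 8 were higher, and the median was 0.16, or 0.05 without untreated arrays 4 and 5. Without those arrays the CCT3 probe used gave -0.03. A second CCT3 probe gave 0.35 ± 0.26, and 0.43 without them. For CCT4 the probe used gave 0.17 without them, and a second probe gave 0.26 ± 0.29, or 0.27 without them. The smallest adjusted p of the 8 in limma was 0.609. The subunits did not keep 1 order over the arrays. On untreated array 1 CCT8 read 5.81, its lowest value of the 12 arrays, and CCT2 read 10.94, its highest. On treated array 6 CCT4 read 10.92, its highest, while TCP1 read 9.64, its lowest treated value.

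Ubiquilins carry ubiquitinated proteins to the proteasome. UBQLN1 had the widest interval of the 46 genes, because untreated array 5 read -0.61 where the other untreated arrays read 5.21 to 5.84. Its treated arrays read 5.20 to 6.34. The difference was 1.42 ± 0.83 with all arrays and 0.42 without untreated array 5. Before normalization this array has no intensity above 0 for the probe, and the other 11 arrays gave 0.53 (limma, unadjusted p = 0.031) after median centring and 0.42 after quantile normalization. UBQLN2 (-0.08 ± 0.18) and UBQLN4 (0.02 ± 0.28) gave no difference beyond their SE.

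In the ER group 3 of 7 genes were higher and 4 lower, with a median of -0.08. Without untreated arrays 4 and 5 all 7 were lower by the probe used, at -0.51 to -0.06, with a median of -0.29. Of the 7 genes 0 then had an unadjusted p under 0.05. Among the second probes, those of DNAJB12 (-0.28) and SERPINH1 (-0.03) were also lower without these arrays, and that of DNAJC3 was higher (0.28). DNAJB12, a J protein anchored in the ER membrane that takes part in degradation of misfolded membrane proteins, had the smallest p. It read 6.19, 5.97, 5.50, 6.49, 6.32 and 6.19 on untreated and 6.09, 5.90, 6.18, 5.75, 4.33 and 5.81 on treated arrays. The low value on treated array 5 stood alone, and the difference was -0.43 ± 0.29, or -0.16 without that array.

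DNAJC3 (p58IPK), which acts with the ER HSP70 and is induced by the unfolded protein response, read 7.38 to 8.11 on untreated and 6.08 to 8.48 on treated arrays. Its lowest treated value was on array 1 and its highest on array 3, and the difference was -0.32 ± 0.31. The value was -0.04 without treated array 1. A second DNAJC3 probe gave 0.23 ± 0.22, the opposite sign. HSPA13, an HSP70-like protein of microsomes, had -0.27 ± 0.22. DNAJB11 (ERdj3), a soluble J protein of the ER lumen, had 0.20 ± 0.30. DNAJC1, an ER membrane J protein, had 0.04 ± 0.33, and DNAJC16 had 0.06 ± 0.26.

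SERPINH1 (HSP47), the collagen chaperone of the ER, had 2 probes that behaved differently. The probe used for the gene read 7.37 and 8.04 on untreated arrays 4 and 5, 8.02 to 9.22 on the other untreated arrays and 7.84 to 8.50 on treated arrays. It gave a difference of -0.08 ± 0.27. The other probe read 8.42 and 8.35 on untreated arrays 4 and 5 and 5.88 to 6.74 on the other 10 arrays. Its difference of -0.70 ± 0.39 (limma, unadjusted p = 0.093, adjusted p = 0.502) was -0.03 without those arrays. In SK-MEL-28 the latter probe read 7.67 to 9.32 on the 8 arrays that did not stand apart.

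In mitochondria 4 of 5 genes were higher, with a median of 0.08, and 2 of 5 without untreated arrays 4 and 5, with a median of -0.11. HSPE1 (HSP10), the lid of the mitochondrial chaperonin, read 11.88, 12.41, 12.31, 11.74, 12.38 and 12.24 on untreated and 12.81, 12.11, 12.55, 12.24, 12.69 and 12.09 on treated arrays. The difference of 0.25 ± 0.20 was 0.20 without arrays 4 and 5. HSPA9 (mortalin), the mitochondrial HSP70 that pulls in imported proteins, ranged over 2 log2 units in the untreated arm, from 8.41 to 10.80, and from 8.90 to 10.11 in the treated arm. The difference was -0.13 ± 0.39. DNAJC15 and DNAJC19, J proteins of the import motor, had 0.22 ± 0.21 and 0.07 ± 0.18, and DNAJC30, linked to the respiratory chain, had 0.08 ± 0.40.

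**Figure D3:**
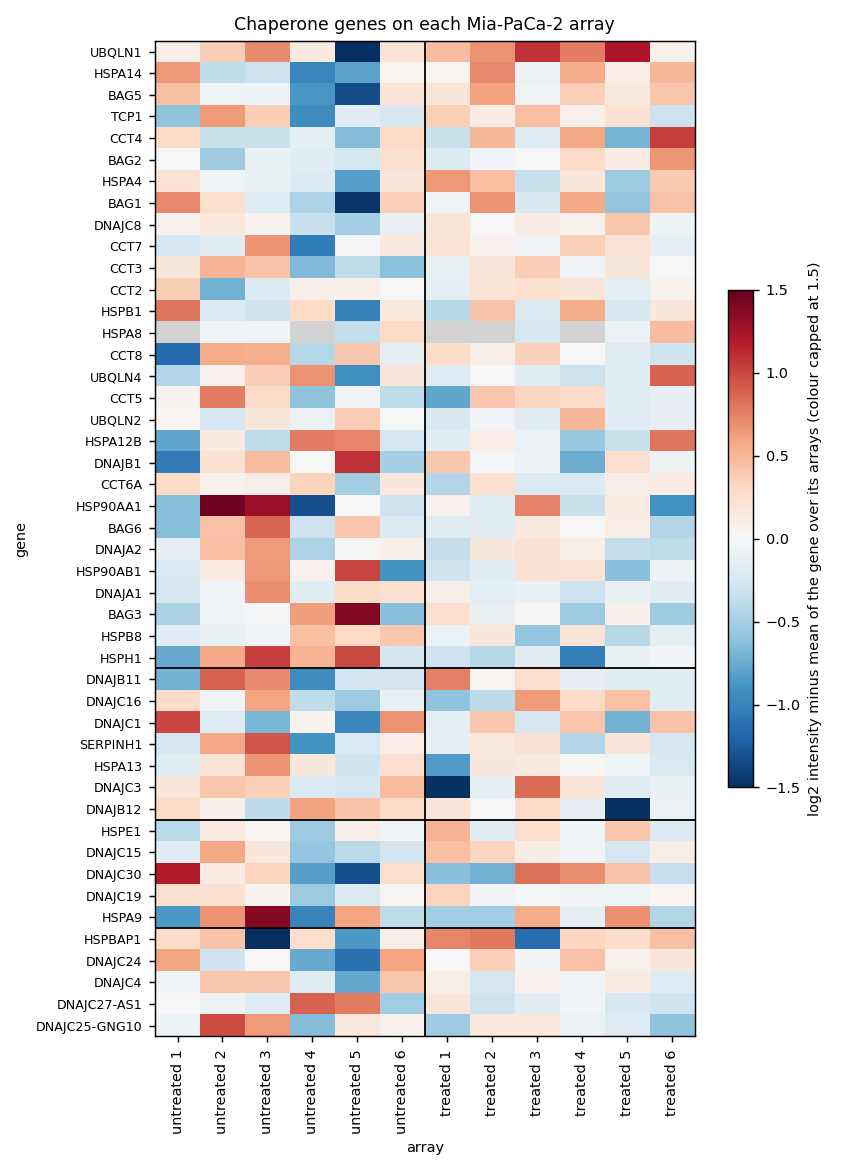
Each of the 46 chaperone genes (rows, grouped by compartment between black lines, in the order of the plot of differences) on each of the 12 Mia-PaCa-2 arrays (columns), as log2 intensity minus the gene's mean over its arrays; red is above the mean, blue below, colour is capped at 1.5, and grey marks arrays with no normalized value. Arrays of 1 arm differ visibly, as for HSP90AA1, which reads 11.99 and 11.83 on untreated arrays 2 and 3 and 9.22 and 10.54 on untreated arrays 4 and 5.

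Much of the spread was between arrays of 1 arm. Both untreated arrays 4 and 5 lay below the other 4 untreated arrays in 13 of 46 genes and above them in 4. Of 11602 probes, both lay below the others in 2740 and above in 3105. The mean of arrays 4 and 5 was below that of the other 4 in 35 of 46 genes, with a median difference of -0.47. Of all 11602 probes it was below in 6279, with a median difference of -0.09. Over the genes the median SD was 0.57 in untreated and 0.33 in treated cells, and the untreated SD was the larger in 35 of 46 genes. Without arrays 4 and 5 it was larger in 27 of 46, with a median of 0.38. Over all probes these shares were 70.6% with and 47.8% without those arrays.

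Some genes were also high or low together on arrays of both arms. The second HSPA8 probe read 7.20, 7.18, 7.35 and 7.27 on untreated arrays 1 and 6 and treated arrays 4 and 6, and 4.99, 5.12, 5.28 and 5.14 on treated 3, untreated 2, untreated 3 and treated 5. DNAJC1 read 8.72, 8.39, 8.14 and 8.15 on the former arrays and 7.46, 7.52, 7.03 and 7.01 on the latter. HSPA9 ran the other way, with 8.56, 9.04, 9.28 and 8.98 against 9.98, 10.10, 10.80 and 10.11. Each set of arrays held both arms. These genes and arrays were picked for this pattern after their values were seen, and it was not tested.

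Genes of the wider chaperone network in Mia-PaCa-2 also had no adjusted p under 0.05. Of 7 measured genes on a list of HSF1 regulators and other heat-inducible genes, 3 were higher and 4 lower. ATF3, a stress-inducible transcription factor, had 0.50 ± 0.22 (limma, unadjusted p = 0.038, adjusted p = 0.501). The ATF3 level was low, at 5.05 on untreated and 5.55 on treated arrays. Of 11 cochaperones of HSP90 and HSP70 outside the member families 9 were higher, with a median of 0.13 that was -0.03 without untreated arrays 4 and 5. NUDC, a dynein regulator that works with HSP90, had 0.46 ± 0.27 and CDC37, which loads kinases on HSP90, had 0.29 ± 0.17. Of 10 prefoldin subunits and chaperonin partners 3 were higher and 7 lower, with PFDN6 at -0.48 ± 0.43.

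Of 22 genes of ER folding and quality control 13 were higher and 9 lower, and 2 had an unadjusted p under 0.05, near the 9.59% of all probes that did. SIL1, the exchange factor for the ER HSP70, averaged 5.70 on untreated and 4.70 on treated arrays, a difference of -1.0 ± 0.24 (limma, unadjusted p = 0.000702, adjusted p = 0.501) that was -0.97 without untreated arrays 4 and 5. The SIL1 probe is dim. Its level was near that of HSPBAP1 (4.93 on untreated and 5.40 on treated arrays), below which only 0.586% of the line's probes lay. XBP1, a transcription factor of the unfolded protein response, averaged 7.24 and 7.89, a difference of 0.66 ± 0.29 (limma, unadjusted p = 0.036, adjusted p = 0.501), and also 0.66 without those arrays. Of 17 genes of mitochondrial folding and proteolysis 9 were higher and 8 lower, with TIMM23, a pore of the import machinery, at 0.43 ± 0.22, or 0.10 without arrays 4 and 5. Beside these, 1 of the 5 measured epithelial markers was higher and 4 were lower. MUC1 was at -0.93 ± 0.23 (limma, unadjusted p = 0.00106, adjusted p = 0.501) and at -0.79 without arrays 4 and 5. The summed epithelial level ran from 718 to 15596 on the other untreated arrays, from 624 to 18775 on treated arrays and from 636 to 9570 on untreated arrays 4 and 5, on the linear scale, and KRT18 has no normalized value on some arrays. Their part in the chaperone values was not tested.

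The second comparison asked the same of SK-MEL-28, where 11 of the 15 genes belong to the cytosol and nucleus, 3 to the ER and 0 to mitochondria. No chaperone gene passed the adjusted test, as was the case for all 7973 probes (0.0%). Of the 15 genes 8 were higher and 7 lower, with a median of 0.04. Of all 7973 probes 3399 were higher, and their median was -0.05. In limma 0 of 15 had an unadjusted p under 0.05, where 5.59% of all probes did, and 0 of 15 had arms that did not overlap, where 1.2% of probes did. The replicate number was also used as a block, a pairing read from these data and not from the labels. With it 4 genes had an unadjusted p under 0.05, where 10.7% of all probes did. These were HSPA8, HSPA1L, DNAJB5 and CCT5, with adjusted p of 0.458 each. With treated arrays 3 and 5 also left out, none of these 4 had an unadjusted p under 0.05, and 1 other gene, SERPINH1 (limma, unadjusted p = 0.035), did, where 5.15% of probes did. In 9 of the 15 genes the 95% interval of the difference, without the block, lay within 1 on either side of 0.

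HSPA8 had the widest interval of the line. It read 7.43, 5.90, 7.85, 7.46 and 8.59 on untreated arrays 1 to 5, and 7.53, 7.98, 12.54, 7.63 and 13.33 on treated arrays 1 to 5. The 2 high values were those of the arrays that resembled both lines. They stand near the 13.42 to 14.13 at which the probe read on the Mia-PaCa-2 arrays that did not stand apart. The lines, however, appear to have been normalized separately. The difference was 2.35 ± 1.15 (limma, unadjusted p = 0.065, and 0.020 with the block) with all arrays and 0.27 without treated arrays 3 and 5. HSPA8 was higher in each of the 5 pairs of same-numbered arrays.

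The same arrays carried much of the differences of CCT5, DNAJA1 and DNAJB11. The chaperonin subunit CCT5 read 8.72, 6.88, 9.02, 7.83 and 7.55 on untreated and 9.88, 7.60, 10.03, 7.58 and 9.36 on treated arrays. Its difference was 0.89 ± 0.58, or 0.35 without treated arrays 3 and 5. DNAJA1 read 7.90, 6.18, 7.82, 6.64 and 6.38 on untreated and 7.74, 5.93, 9.28, 6.19 and 8.82 on treated arrays, and its difference of 0.61 ± 0.66 became -0.36 without them. DNAJB11 read 5.09 to 6.32 on untreated arrays, 4.88 to 5.98 on treated arrays 1, 2 and 4, and 8.75 and 7.93 on treated arrays 3 and 5. The difference of 0.94 ± 0.65 became -0.18 without the last 2.

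**Figure D4:**
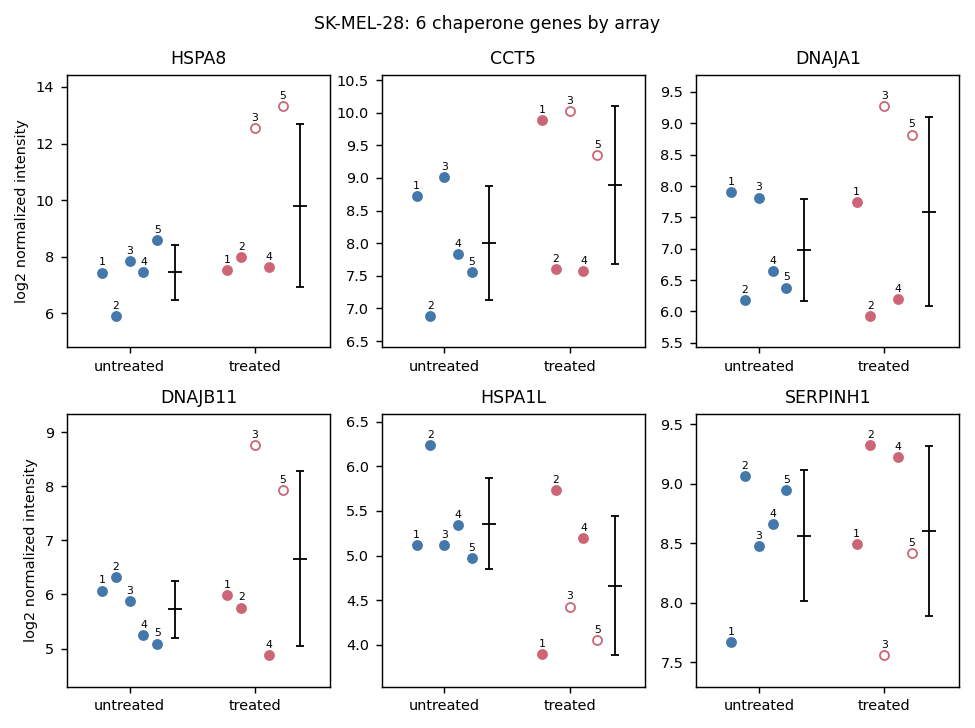
Log2 normalized intensity (vertical axis, scaled per panel) of 6 chaperone genes on each SK-MEL-28 array, by arm; numbers are replicate numbers, open circles are treated arrays 3 and 5, and the black mark and bar are the mean and SD of all 5 arrays. HSPA8, DNAJA1 and DNAJB11 have their highest values on the open circles, and SERPINH1 its lowest on treated array 3.

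HSPA1L, an HSP70 best known from the testis, read 5.12, 6.24, 5.12, 5.34 and 4.97 on untreated and 3.90, 5.73, 4.43, 5.19 and 4.05 on treated arrays. After normalization each of the 5 treated arrays lay below the untreated array of its number. Before it, with arrays unscaled, treated arrays 3 (39.9) and 4 (38.2) lay above untreated arrays 3 (39.2) and 4 (30.6). The HSPA1L probe is dim, with only 0.288% of the line's probes at a lower mean level. The difference was -0.70 ± 0.38 (limma, unadjusted p = 0.091, and 0.007 with the block), or -0.42 without treated arrays 3 and 5. DNAJB5, a J protein related to DNAJB1, read 6.11, 4.93, 6.67, 6.22 and 5.98 on untreated and 6.06, 4.44, 5.85, 5.37 and 5.31 on treated arrays, again lower in all 5 pairs. Its difference was -0.58 ± 0.36 (limma, unadjusted p = 0.141, and 0.011 with the block), and -0.69 without those arrays. UBQLN2 (-0.33 ± 0.22), also lower in all 5 pairs, and HSPB8 (0.38 ± 0.27), higher in 4 of 5, kept their sign without them. Before normalization, with arrays unscaled, treated array 2 lay above untreated array 2 for DNAJB5 (18.0 against 17.0). For UBQLN2 treated array 3 lay above untreated array 3 (105.8 against 86.1). How many of all probes had 5 pairs in 1 direction after normalization, as HSPA8, HSPA1L, DNAJB5 and UBQLN2 did, was not counted. These counts of pairs therefore have no share of all probes beside them.

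The collagen chaperone SERPINH1 read 7.67, 9.06, 8.48, 8.66 and 8.95 on untreated and 8.49, 9.32, 7.56, 9.22 and 8.42 on treated arrays. The difference was 0.04 ± 0.37, and 0.45 without treated arrays 3 and 5. HSP90AA1 (0.06 ± 0.20), DNAJB12 (-0.02 ± 0.17), HSPA12B (-0.09 ± 0.20) and DNAJB13 (0.04 ± 0.25), an axonemal J protein, had differences within their SE. DNAJC5B, a cysteine string protein, had -0.23 ± 0.24, and DNAJC27-AS1 had -0.12 ± 0.21.

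Some untreated and treated arrays of this line also shared levels. DNAJA1 lay at 7.74 to 7.90 on untreated 1, untreated 3 and treated 1, and at 5.93 to 6.64 on untreated 2, 4 and 5 and treated 2 and 4. CCT5 lay at 8.72 to 9.88 on the former and at 6.88 to 7.83 on the latter. DNAJB11 (5.88 to 6.07 against 4.88 to 6.32) and HSPA8 (7.43 to 7.85 against 5.90 to 8.59) did not divide this way. The former arrays had medians of 115.0 to 124.8 before normalization, and the latter 55.4 to 81.1. DNAJA1, CCT5 and these arrays were picked for this pattern after their values were seen, and it was not tested.

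Of the wider network 2 to 7 genes a list were measured in SK-MEL-28 on 4 of the 5 lists and 1 on the list of prefoldin and chaperonin partners, with 0 adjusted p under 0.05. TIMM23 averaged 8.03 on untreated and 8.77 on treated arrays, a difference of 0.75 ± 0.33 (limma, unadjusted p = 0.042, adjusted p = 0.838) that was 0.22 without treated arrays 3 and 5. SQSTM1 (p62), an autophagy receptor for ubiquitinated cargo, had 2.11 ± 1.14, or 1.23 without them. FKBP4, an HSP90 cochaperone, had -0.22 ± 0.23. The epithelial marker MUC1 read 7.54 and 7.86 on treated arrays 3 and 5 and 5.79 to 7.10 on the other 8 arrays. Its difference was 0.57 ± 0.33 (limma, unadjusted p = 0.118, and 0.006 with the block, adjusted p = 0.842), or 0.18 without those arrays, and its part in the chaperone values was not tested.

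The third comparison asked whether the treatment differences were unlike in the 2 lines, by a contrast on the 11 probes measured in both. The difference in SK-MEL-28 minus that in Mia-PaCa-2 was above 0 for 9 of 11 probes, where it was for 3974 of all 5321. The median was 0.67, where all probes had 0.22. Without the 4 arrays that stood apart the medians were 0.18 and 0.02. By limma 0 of 11 had an adjusted p under 0.05, as did 0.0% of all probes, and 0 of 11 had an unadjusted p under 0.05, where 5.47% did. With the replicate block 3 probes had an unadjusted p under 0.05 (HSPB8, HSPA8 and CCT5, adjusted p 0.603 each), where 8.14% did. That block also paired the Mia-PaCa-2 arrays by number, although their numbers were not taken as pairs.

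HSPB8 had the smallest p, at -0.28 for Mia-PaCa-2 and 0.38 for SK-MEL-28, a difference of 0.67 ± 0.33 (limma, unadjusted p = 0.052, adjusted p = 0.873) that was 0.49 without the 4 arrays. For HSPA8 the difference between lines was 2.27 ± 1.46, and for CCT5 0.91 ± 0.62. It was 0.85 ± 0.66 for DNAJA1, 0.74 ± 0.58 for the shared SERPINH1 probe and 0.42 ± 0.36 for DNAJB12. Without the 4 arrays these were 0.30 for HSPA8, 0.55 for CCT5, 0.48 for SERPINH1 and 0.35 for DNAJB12, and the sign changed for DNAJA1 (-0.08). For DNAJB11 the difference of 0.74 ± 0.72 also changed sign, to -0.13.

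**Figure D5:**
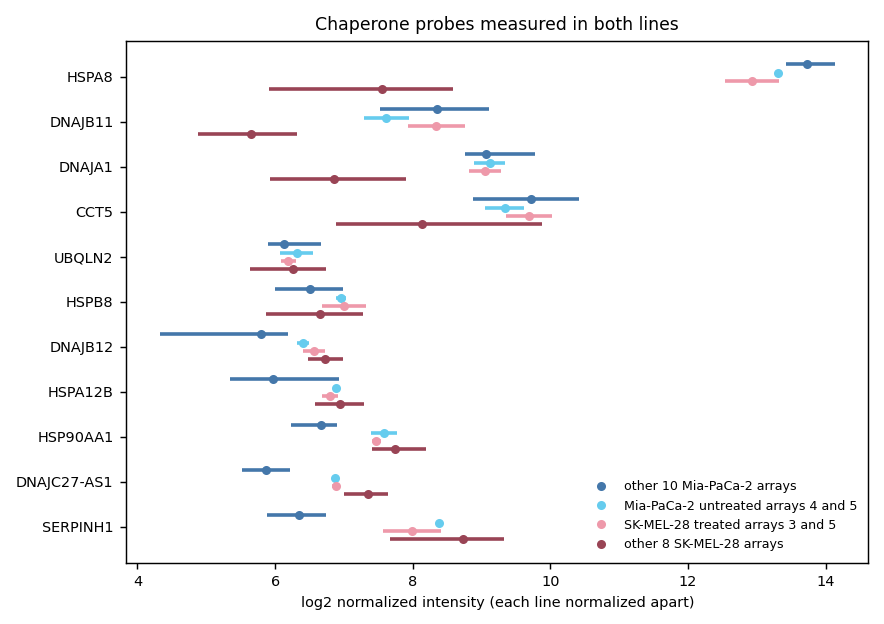
Range (line) and mean (point) of log2 normalized intensity of the 11 chaperone probes measured in both lines, on 4 sets of arrays. Each line appears to have been normalized apart, and HSPA8 has 1 value on Mia-PaCa-2 untreated arrays 4 and 5. For HSPA8 the SK-MEL-28 treated arrays 3 and 5 (12.54 and 13.33) lie near the Mia-PaCa-2 arrays, and for SERPINH1 the Mia-PaCa-2 untreated arrays 4 and 5 (8.42 and 8.35) lie among the SK-MEL-28 arrays.

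On the 11 shared probes the 4 arrays that stood apart lay near arrays of the other line more than once. DNAJC27-AS1 read 6.92 and 6.82 on Mia-PaCa-2 untreated arrays 4 and 5 and 6.83 and 6.93 on SK-MEL-28 treated arrays 3 and 5. Elsewhere it read 5.52 to 6.22 (Mia-PaCa-2) and 7.01 to 7.64 (SK-MEL-28). DNAJB11 read 7.52 to 9.11 on the remaining Mia-PaCa-2 arrays and 4.88 to 6.32 on those of SK-MEL-28, with the 4 arrays between 7.30 and 8.75. What these arrays contain was not tested.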

How the data were processed

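Each array measured RNA of 1 sample, labelled as biotin cRNA on CodeLink arrays. The deposited values are intensities on a linear scale: 1 intensity per probe for each sample, and a table of the authors' normalized intensities of the same arrays. No source used here names the background correction or the normalization method. The largest normalized value is the same on every array of a line, 21001 (Mia-PaCa-2) or 16529 (SK-MEL-28). The lines therefore appear to have been normalized apart. Per the labels each hybridization used an independent cRNA preparation. Nothing says that the preparations were of separate cultures, and p-values then cover only the spread among arrays, which may be technical. Gene symbols are those of GEO's platform annotation, and promoter sequences are from RefSeq (GRCh38.p14). All value columns were mapped to a sample by name.

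Normalized intensities were put on the log2 scale without a pseudocount, and each line was fitted alone in R 4.3.3 with lmFit and eBayes of limma 3.58.1, on every probe measured on 3 or more arrays in each group. P-values were adjusted by the Benjamini-Hochberg method over all probes tested (11604, 7973 and, between lines, 5321), with a threshold of 0.05. For a gene with several probes, the probe of highest mean level in the line was used. Tables and figures were made with Python 3.11.15, pandas 2.3.3, NumPy 2.4.6 and matplotlib 3.10.9. Data were simulated from the arrays' means and spreads, with some probes changed by 0.5, 1 or 2 on the log2 scale. Among the 11604 Mia-PaCa-2 probes, limma recovered 1.45%, 50.8% and 94.1% of these changes. Among the 7973 probes of SK-MEL-28 it recovered 0%, 31.3% and 80.7%. The simulated noise was independent between probes and arrays. Real arrays, such as those that stood apart, departed together over many probes, so these shares need not hold for the real data.

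Replicate numbers are from the sample titles. In SK-MEL-28 the deviations of same-numbered treated and untreated arrays from their group means correlated at 0.602, 0.360, 0.401, 0.306 and 0.247. All were above 0.1, so the numbers were taken to pair the arrays, as a property seen in the data. Untreated array 3, however, correlated best with treated array 1, and untreated array 5 with treated array 4. The block results and the counts of pairs in this line rest on this uncertain pairing. In Mia-PaCa-2 the correlations ran from -0.187 to 0.437 and the numbers were not taken as pairs. The members, gene lists and tests were chosen with earlier results of these data known. Named by rule were, in each line and compartment, the 6 genes with the smallest p and the 4 with the highest mean level, all CCT subunits, the 6 probes with the smallest p between lines and up to 3 genes a list. BAG1, BAG3, BAG6, DNAJA1, DNAJA2, DNAJB1, DNAJC8, HSP90AA1, HSP90AB1, HSPA12B, UBQLN2, UBQLN4 and DNAJC25-GNG10 in Mia-PaCa-2, and DNAJC5B, DNAJB13, HSPA12B and DNAJC27-AS1 in SK-MEL-28, were added after their values were seen, for their role or to complete a family. The alternatives tried were leaving out the arrays that stood apart or each array in turn, the replicate block, the intensities before normalization, a filter on dim probes, array weights, a trend in the prior variance and the mean over all probes of a gene.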

Additional observations from a re-analysis of the deposited data

Results flagged for a closer look

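Groups of arrays were screened for 34 of the Mia-PaCa-2 genes and for the 15 SK-MEL-28 genes. In 5 of these 97 groups (5.16%), 1 array lay far from all others of its group by Dixon's criterion. Chance alone marks about 5% of groups under this rule. The remaining Mia-PaCa-2 chaperone genes were not screened, so the share does not cover them. In Mia-PaCa-2, UBQLN1 read -0.61 on untreated array 5, with the nearest of the others at 5.21. CCT6A was also low on that array, at 5.46, with the nearest at 6.06. DNAJB12 read 4.33 on treated array 5, with the nearest at 5.75, and DNAJC19 read 7.87 on treated array 1, with the nearest at 7.56. In SK-MEL-28, DNAJC5B read 6.69 on untreated array 3, with the nearest at 5.74. The UBQLN1 difference is 1.42 with all arrays and 0.42 without that array, on which the intensity before normalization is below 0. Some genes outside the screen also had 1 array apart from its group in Mia-PaCa-2. UBQLN2 read 6.66 on treated array 4, with the nearest at 6.125. UBQLN4 read 6.76 on treated array 6, with the nearest at 5.89. HSPBAP1 read 4.03 on treated array 3, with the nearest at 5.44. No cause was tested for any of these values.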

How the results depend on the processing

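No chaperone gene had an adjusted p under 0.05 with limma in either line, with all arrays or under any alternative fitted. Over 34 named Mia-PaCa-2 genes and 21 alternatives 648 of 709 differences kept their direction, and over 15 SK-MEL-28 genes 261 of 281 did. These counts overstate the agreement, since some alternatives leave a difference unchanged by construction. The trend and the dim-probe filter do so, as does the mean over probes for a gene with 1 probe. The block on all arrays does so where no value is missing. Of the genes, 15 of 34 and 7 of 15 never changed direction. The count at an unadjusted p under 0.05 in Mia-PaCa-2 was 1 without untreated arrays 4 and 5, and 0 to 3 when each array was left out in turn, with 0 without untreated array 2, 3 or 5 or treated array 2 or 4 (5 arrays) and 3 without untreated array 1 or 6 or treated array 3. With the replicate block it was 3, although the numbers did not pair those arrays. In SK-MEL-28 the count was 4 with the replicate block, 1 with the block and without treated arrays 3 and 5, and 0 to 2 with each array left out in turn (2 without treated array 2 or 4, and 1 without untreated array 2 or treated array 1). Between the lines it was 3 with the replicate block, which also paired the Mia-PaCa-2 arrays by number. The block changed no adjusted call.

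Leaving out each SK-MEL-28 array in turn gave medians of -0.14 to 0.087 over the genes and in the cytosol and nucleus and -0.060 to 0.30 in the ER, and leaving out the lowest 25% of probes gave 0.38 in the cytosol and nucleus, where fewer genes remain by construction. Without untreated arrays 4 and 5 of Mia-PaCa-2 the sign changed for HSPA8 (-0.026), HSPB1 (-0.065), CCT3 (-0.032), DNAJB11 (-0.055), DNAJC16 (-0.15), DNAJC1 (-0.18), DNAJC19 (-0.11), DNAJC30 (-0.44), BAG3 (0.16) and DNAJB1 (0.17) among the 34 named genes, and for BAG1 (-0.15), HSPA12B (0.27), UBQLN4 (-0.033), DNAJC24 (-0.055) and DNAJC27-AS1 (0.052) among the others. With the replicate block as well it changed for HSPA8 (-0.012), HSPB1 (-0.12), CCT3 (-0.015), DNAJB12 (0.033), DNAJC16 (-0.32), DNAJC1 (-0.091), DNAJC19 (-0.062), DNAJC30 (-0.70), CCT7 (-0.073), BAG3 (0.21), DNAJB1 (0.27) and HSP90AB1 (0.0091). Array weights turned DNAJB11 (-0.12), DNAJC16 (-0.078), DNAJC19 (-0.062), DNAJC30 (-0.21), CCT7 (-0.0035) and CCT8 (-0.061), and median centring turned CCT5 (0.040). The mean over both HSPA8 probes gave -0.54, since on 5 arrays only the other probe has a value. In SK-MEL-28 the sign changed without treated arrays 3 and 5 for DNAJA1 (-0.36), DNAJB11 (-0.18), DNAJB12 (0.063) and DNAJC27-AS1 (0.093). With the replicate block as well it changed for DNAJA1 (-0.29), DNAJB11 (-0.34), DNAJC5B (0.034) and DNAJC27-AS1 (0.072), and with array weights for DNAJB13 (-0.052).

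With each Mia-PaCa-2 array left out in turn the differences ran from -0.026 to 0.19 for HSPA8, -0.10 to 0.26 for HSPB1, -0.27 to 0.10 for SERPINH1, -0.057 to 0.19 for DNAJC16, -0.15 to 0.25 for DNAJC1, -0.036 to 0.12 for DNAJC19, -0.34 to 0.13 for HSPA9, -0.18 to 0.33 for DNAJC30, -0.00063 to 0.22 for CCT2, -0.15 to 0.19 for CCT8, -0.15 to 0.12 for CCT5, -0.30 to 0.12 for DNAJB1 and -0.45 to 0.11 for HSP90AA1. In SK-MEL-28 they ran from -0.064 to 0.13 for HSP90AA1, -0.075 to 0.053 for DNAJB12, -0.18 to 0.30 for SERPINH1 and -0.17 to 0.16 for DNAJB13. The cause of these sign changes was not tested. Detection flags and background signals were not used here, so dim probes could not be told from background.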
